A study of Mus musculus with 6 samples.

Results

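Il6st, Osmr and Lif encode a shared cytokine receptor subunit, one of its partner receptors and one of its ligands. Their probes were found by the single gene symbol that the array's probe annotation assigns. This gave 4 probes, 1 for Il6st, 1 for Osmr and 2 for Lif, among 10653 probes with 1 gene symbol that covered 7606 genes. All 4 passed the filter on dim probes. Transcript levels had been measured on 6 one-colour Illumina bead arrays of cultured mouse embryonic fibroblasts (MEFs), which are connective-tissue cells cultured from dissociated embryos. The arrays compared 3 CypD -/- samples (replicates A, B and C, abbreviated KO) with 3 wild-type samples (replicates A, B and C, WT). CypD is cyclophilin D, a mitochondrial matrix isomerase encoded by Ppif and a regulator of the permeability transition pore. All samples came from E13.5 embryos (mid-gestation) on a C57BL/6 background, were grown in the same serum-containing medium, and received no stated treatment or added cytokine. It is not stated whether the letters mark separate embryos or cultures. The p-values therefore cover only array-to-array spread, part of which may be technical.

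The protein gp130, the product of Il6st, is the signalling subunit that cytokines of the interleukin-6 family share. Leukemia inhibitory factor (LIF) binds a pair of gp130 and the LIF receptor, and oncostatin M binds a pair of gp130 and the oncostatin M receptor, the product of Osmr. Receptor pairing activates JAK kinases attached to the receptors, which phosphorylate STAT3 among other factors, and the induced SOCS proteins then dampen the signal. Fibroblasts express these receptors, and LIF is best known for keeping mouse embryonic stem cells undifferentiated.

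In KO MEFs both receptor genes were higher and the ligand gene was lower than in WT MEFs. Il6st was 1.98-fold higher, Osmr was 1.92-fold higher, and Lif was 2.14-fold lower by its brighter probe and 1.5-fold lower by its other probe. All 4 probes passed the test, and for none of them did the KO and WT arrays overlap. Of all probes kept, named or not, 20.0% passed (9.78% upward and 10.2% downward) and 33.3% had groups that did not overlap; of the named probes 42.1% passed. Among all genes tested, each by its brightest probe, 43.6% passed and the groups of 56.1% did not overlap. Gene names were available only for probes that the authors' processed table lists, each of which varied at least 1.20-fold over the arrays. That selection can raise both shares. The direction also held, together with the call, in every alternative in which a probe was fitted, as described below.

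Il6st, on chromosome 13 (GRCm38.p6, chr13:112464070-112506860), was measured by probe ILMN_2608184. Its deposited raw intensity, in linear scanner units, was 650, 673 and 687 on KO arrays A, B and C, against 417, 389 and 390 on WT arrays A, B and C. The lowest KO array was well above the highest WT array, and the spread inside each group was small beside the gap. After background correction and quantile normalization the log2 intensity was 9.13, 9.25 and 9.22 in KO and 8.19, 8.15 and 8.31 in WT. The means were 9.20 ± 0.061 in KO and 8.22 ± 0.083 in WT (SD, n = 3 each), a log2 fold change of 0.98 ± 0.092 (SE, KO over WT, adjusted p = 2.75e-06, 95% interval 0.79 to 1.18). The signal stood at the 78.2nd percentile of all probes in KO and at the 71.5th in WT.

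Osmr, on chromosome 15 (chr15:6813568-6874968), gave the brightest of the 4 signals, at the 91.7th percentile of all probes in KO and the 87.3rd in WT. Raw intensities of probe ILMN_2623280 were 3631, 3420 and 3698 on KO arrays A, B and C, against 2051, 2052 and 1940 on the WT arrays. Each KO array was thus at least 15.1 times the median probe of its array, while no WT array exceeded 8.69 times. On the normalized log2 scale the arrays gave 11.82, 11.77 and 11.85 in KO and 10.80, 10.92 and 10.88 in WT. The means were 11.81 ± 0.041 in KO and 10.87 ± 0.063 in WT (SD, n = 3 each), a log2 fold change of 0.94 ± 0.071 (SE, adjusted p = 2.81e-07, 95% interval 0.79 to 1.10).

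Lif, on chromosome 11 (chr11:4257568-4272514), had a pair of probes, both annotated to the same transcript record. The brighter, ILMN_3137287, had raw intensities of 275, 258 and 322 on KO arrays A, B and C, against 526, 508 and 518 on the WT arrays. The KO signals were only 1.14 to 1.40 times the median probe of their arrays, and the WT signals 2.09 to 2.32 times. The files hold no detection p-value, so it is not known how far the KO signal was above background. Normalized log2 intensities were 7.53, 7.41 and 7.86 in KO and 8.62, 8.65 and 8.82 in WT. The means were 7.60 ± 0.23 in KO and 8.70 ± 0.11 in WT (SD, n = 3 each), a log2 fold change of -1.10 ± 0.12 (SE, adjusted p = 1.43e-05, 95% interval -1.36 to -0.84).

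The other Lif probe, ILMN_3137291, was dimmer in WT and showed a smaller difference in the same direction. Its raw intensities were 238, 278 and 268 in KO, against 393, 374 and 313 in WT, and the groups again did not overlap. Normalized log2 intensities were 7.20, 7.58 and 7.48 in KO and 8.08, 8.08 and 7.87 in WT. The log2 fold change was -0.59 ± 0.12 (SE, adjusted p = 0.00267, 95% interval -0.84 to -0.33). Its KO signals were 1.04 to 1.23 times the median probe and its WT signals 1.40 to 1.57 times. The means of the probes' KO-over-WT log2 changes differed by -0.51 (brighter minus dimmer), with an exact two-sided permutation p = 0.1, the smallest that 3 arrays against 3 allow. The KO arrays did not rank alike on the pair of probes: C was the highest by the brighter probe and B by the dimmer one.

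**Figure D1:**
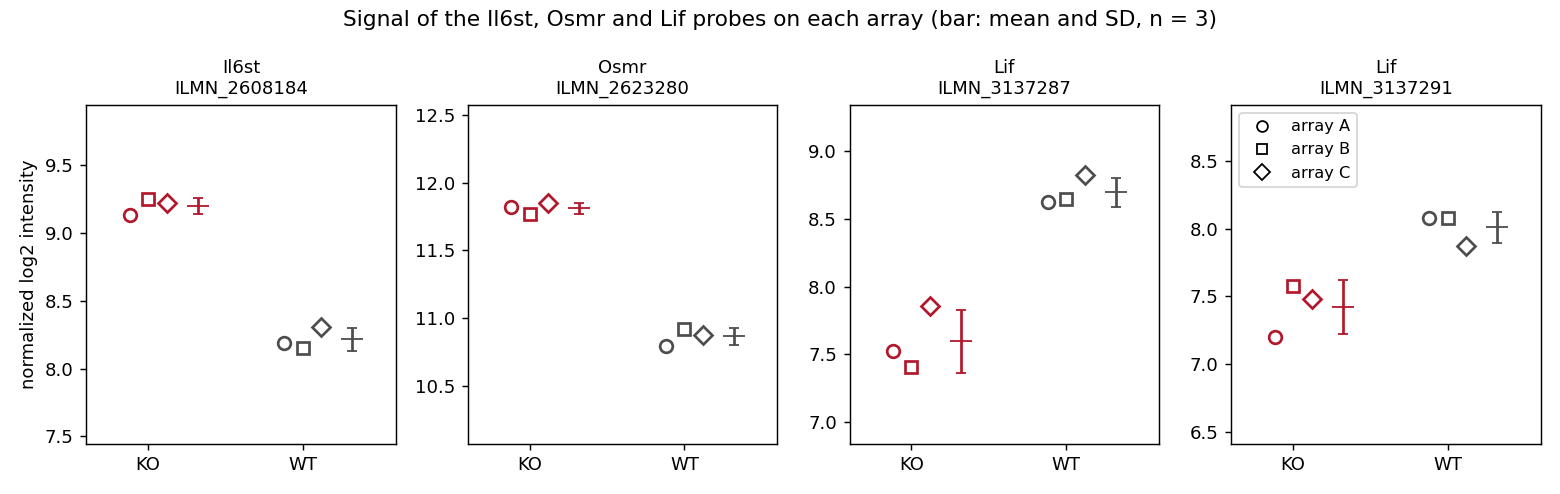
Normalized log2 intensity of the Il6st, Osmr and 2 Lif probes, with KO arrays on the left and WT arrays on the right of each panel, a symbol for each array A, B and C, and the mean and SD beside them (n = 3). Each panel spans the same number of log2 units but starts at its own level, so only differences within a panel can be compared; KO lies above WT for Il6st and Osmr and below WT for both Lif probes.

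With the reported background correction, the changes of Il6st and Osmr were close to each other in size. Their log2 fold changes differed by 0.04 (Il6st minus Osmr, exact permutation p = 0.7, two-sided, over 6 pairs of probes, adjusted p = 0.7). That test cannot show that the changes were equal, since with so few arrays its p cannot fall below 0.1. Which change was larger depended on the background correction. Without it, Il6st had 0.80 and Osmr 0.91. With a smaller background offset of 16, Il6st had 1.07 and Osmr 0.96. The difference of the log2 signals of Il6st and Osmr had an SD of 0.085 over KO arrays and 0.11 over WT arrays. For each pairing of a receptor probe with a Lif probe, the changes differed by 1.53 to 2.08 log2 units. Every one of these differences separated the KO from the WT arrays completely, with the smallest exact p that the design allows (0.1, adjusted p = 0.12), so no such test could pass at 0.05.

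Deposited processed intensities, which the authors had normalized, gave the same directions at smaller sizes for the dimmer probes. Il6st averaged 678 ± 23.9 in KO and 390 ± 17.3 in WT (SD, n = 3 each), a ratio of 1.74. Osmr averaged 3625 ± 103 in KO and 1937 ± 80.2 in WT, a ratio of 1.87. Lif averaged 286 ± 32.6 in KO and 509 ± 30.6 in WT by the brighter probe, 1.78-fold lower, and 263 ± 22.3 in KO and 350 ± 21.3 in WT by the other, 1.33-fold lower. Of the 4 probes, Osmr, the brightest, moved least between this table and the reported values.

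Many genes changed more than these 3. Of the 7605 genes tested, each by its brightest probe, 6.31% had a larger change in either direction than Il6st, 6.69% a larger one than Osmr and 4.93% a larger one than Lif. The median size of change over all genes was 0.24 log2 units, and the median signed change was 0.01.

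**Figure D2:**
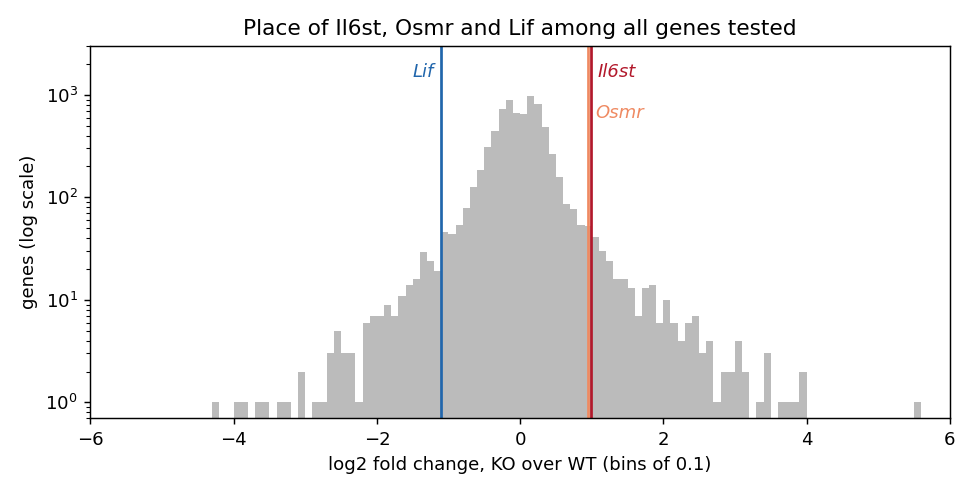
Number of genes (log scale) by log2 fold change, KO over WT, in bins of 0.1 for all 7605 genes tested, with lines at Il6st, Osmr and Lif. The lines lie at 0.98, 0.94 and -1.10, and 6.31%, 6.69% and 4.93% of genes, respectively, had a larger change in either direction.

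The genes of most similar pattern were found by the root mean square difference of log2 profiles over the 6 arrays, each centred on its own WT mean, among 7604 other genes. For Il6st the nearest were Pop4 (0.035 log2 units), Plekha4 (0.057), Pde1a (0.058), Pfkfb4 (0.059) and Pkdcc (0.059). For Osmr they were Fam110c (0.041), Bmper (0.045), Stk25 (0.053), Zfp518b (0.055) and Fgf7 (0.056). For Lif they were Ahrr (0.066), H2-Q5 (0.094), Tmem51 (0.10), Arap3 (0.11) and Erfe (0.11). With 2 groups of 3 arrays, this measure mostly finds genes with an equal difference between the groups.

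The start regions of the 3 genes are shown because the receptor genes rose together and the ligand gene moved the other way. They are the 250 bases before the annotated transcript start, from RefSeq on GRCm38.p6, with capitals marking every match, on either strand, to an AP-1 site (TGANTCA), a STAT site (TTCNNNGAA), a GC box (GGGCGG) or a CCAAT box (CCAAT). Il6st lies at chr13:112463820-112464069 on the plus strand, Osmr at chr15:6874314-6874563 on the minus strand and Lif at chr11:4257318-4257567 on the plus strand.
Il6st: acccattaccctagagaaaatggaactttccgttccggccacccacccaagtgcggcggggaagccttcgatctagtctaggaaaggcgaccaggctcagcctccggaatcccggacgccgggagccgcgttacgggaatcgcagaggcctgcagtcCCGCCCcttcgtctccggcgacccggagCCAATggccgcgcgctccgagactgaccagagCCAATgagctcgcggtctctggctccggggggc
Osmr: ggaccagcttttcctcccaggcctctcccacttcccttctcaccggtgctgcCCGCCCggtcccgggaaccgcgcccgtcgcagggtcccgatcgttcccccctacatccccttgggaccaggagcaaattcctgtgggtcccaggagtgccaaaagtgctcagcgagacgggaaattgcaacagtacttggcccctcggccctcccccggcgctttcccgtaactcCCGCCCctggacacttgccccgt
Lif: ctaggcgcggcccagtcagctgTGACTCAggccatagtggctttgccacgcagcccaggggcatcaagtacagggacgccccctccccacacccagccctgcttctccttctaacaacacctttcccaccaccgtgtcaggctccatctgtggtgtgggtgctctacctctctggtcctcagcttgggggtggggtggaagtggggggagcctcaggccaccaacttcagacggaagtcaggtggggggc

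The Il6st region had 1 GC box, starting 93 bases before the transcript start on the opposite strand, and 2 CCAAT boxes on the gene's own strand, starting 65 and 33 bases before it. The Osmr region had 2 GC boxes, starting 198 and 23 bases before the start, both on the opposite strand; the annotated gene reaches 405 bases farther upstream than this window, through another transcript start. The Lif region had 1 AP-1 match, starting 228 bases before the start. None of the 3 windows held the letters TTCNNNGAA. Over all 32851 windows of this length in the table, 6.75% held an AP-1 match, 7.02% a STAT match, 32.7% a GC box and 33.8% a CCAAT box. The regions of Il6st and Osmr were 66% G or C and that of Lif 63.6%, against a median of 52.4%. A match describes letters only, and a missing match says nothing of the factor.

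Around these 3 genes, the pathway was read through lists of ligands, receptors, signal transducers, negative regulators and induced genes. Of 76 listed genes, 41 had a named and tested probe; of these 10 rose, 14 fell and 17 did not pass. The 24 that changed are 58.5% of those tested, against 43.6% of all genes tested (21.8% upward and 21.8% downward). The groups did not overlap for 28 of the 41, or 68.3%, against 56.1% of all genes. Both pathway shares count Il6st, Osmr and Lif, which all passed without overlap. The lists were also chosen with earlier results of these data known. Whether the pathway differs from all genes was not tested. The median log2 fold change of the 41 genes was 0.01, as over all genes. A gene without a named probe, among them Il6, Osm and Il6ra, was not analysed here.

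Of the ligands that share gp130, the tested ones were lower or did not pass. Il11, which encodes interleukin-11, had log2 intensities of 7.45, 7.53 and 7.20 in KO, against 8.21, 8.20 and 8.16 in WT. It was 1.74-fold lower (-0.80 ± 0.11, SE, adjusted p = 0.0001), and its KO arrays all lay below its WT arrays. The Il11 probe was dim, and its change was -0.55 log2 units without background correction. Ctf1, which encodes cardiotrophin-1, gave -0.16 ± 0.095 log2 units (adjusted p = 0.309), and its groups overlapped. Of 10 listed ligands, 3 were tested, 0 rose, 2 fell and 1 did not pass. The falls include Lif itself, so that Il11 and Ctf1 alone add to it. Over all genes tested 43.6% were called, and 21.8% fell.

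Lifr, which encodes the partner of gp130 in the LIF receptor, was higher in KO, like Il6st and Osmr, though by less. Its log2 intensities were 7.67, 7.71 and 7.73 in KO, against 7.34, 7.19 and 7.29 in WT, without overlap. The log2 fold change was 0.43 ± 0.10 (SE, adjusted p = 0.00718), and 0.55 (adjusted p = 0.0065) by its other probe. Both probes were dim, and the change of the first was 0.28 log2 units without background correction. Il27ra, the interleukin-27 receptor subunit that pairs with gp130, gave 0.09 ± 0.14 log2 units (adjusted p = 0.749). Of 9 listed receptors of this family 4 were tested, and 3 rose, 0 fell and 1 did not pass, with a median log2 fold change of 0.69. The rises include Il6st and Osmr themselves, so that Lifr and Il27ra alone add to them; 21.8% of all genes tested rose.

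Receptors of other cytokine families changed in both directions. The list had 14 tested members, of which 6 fell, 2 rose and 6 missed the threshold, and the median log2 fold change was -0.20; over all genes tested 43.6% were called (21.8% upward and 21.8% downward) with a median of 0.01. Tnfrsf1b, a receptor of tumour necrosis factor, was 1.69-fold lower (-0.76 ± 0.093, adjusted p = 3.89e-05), and Ghr, the growth hormone receptor, was 1.47-fold lower with both of its other probes passing. Ifngr1 and Il10rb, subunits of the interferon-gamma and interleukin-10 receptors, fell by 0.34 ± 0.080 and 0.35 ± 0.083 on the log2 scale. The other Il10rb probe did not pass (-0.29, adjusted p = 0.0847). Il13ra1, an interleukin-13 receptor subunit, rose by 0.36 ± 0.071, and Il20rb, an interleukin-20 receptor subunit, by 0.59 ± 0.12, while a dimmer Il20rb probe had -0.20 and did not pass. For Il17rc, Ifnar2 and Ifngr2 the log2 fold changes were -0.09, 0.08 and -0.17, none of which passed. Whether the gp130 family differs from these receptors as a list was not tested.

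Among kinases, STAT factors and adaptors, Stat3 and Jak2 rose while Jak1 and Stat5a fell. Stat3, the main transcription factor downstream of gp130, had log2 intensities of 12.66, 12.55 and 12.91 in KO, against 11.91, 12.19 and 12.23 in WT. It was 1.51-fold higher (0.60 ± 0.099, SE, adjusted p = 0.000576), and 0.51 log2 units higher by its other probe (adjusted p = 0.00255). Jak2, a kinase bound to many cytokine receptors, was 1.40-fold higher (0.48 ± 0.076, adjusted p = 0.000367), and its other probe gave 0.47. Jak1, a kinase that gp130 relies on, was 1.30-fold lower (-0.38 ± 0.083, adjusted p = 0.00427), with 10.90, 10.84 and 10.78 in KO, against 11.37, 11.11 and 11.19 in WT. For each of these genes the groups did not overlap. Stat5a, another STAT factor, fell by 0.51 ± 0.11 on the log2 scale (adjusted p = 0.00342), but its other probe did not pass (-0.16, adjusted p = 0.405).

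The remaining transducers did not pass. Tyk2, a JAK family kinase, gave 0.29 ± 0.097 log2 units (adjusted p = 0.0517), close to the threshold, and passed in the deposited processed table and with the stricter filter (adjusted p = 0.0348 and 0.0405). The phosphatase and adaptor Ptpn11 and the adaptor Shc1 had log2 fold changes of 0.01 ± 0.084 and 0.08 ± 0.17. In all, 7 of 13 listed transducers were tested, and 2 rose, 2 fell and 3 did not pass, with a median of 0.08. Over all genes tested 43.6% were called (21.8% upward and 21.8% downward), with a median of 0.01.

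Negative regulators of JAK and STAT signalling moved in both directions, and Socs3, a common readout of gp130 activity, did not pass. Socs3 had log2 intensities of 10.88, 11.00 and 11.11 in KO, against 11.06, 11.34 and 10.85 in WT, so that the groups overlapped (log2 fold change -0.09 ± 0.11, adjusted p = 0.674). Its 95% interval of -0.32 to 0.15 log2 units leaves out changes of the size seen for Il6st, Osmr and Lif. Whether gp130 activity differed between KO and WT was not tested. Cish, a SOCS family member known as a target of STAT5, had 9.29, 9.31 and 9.25 in KO, against 8.02, 7.91 and 7.99 in WT, and rose 2.48-fold (1.31 ± 0.089, SE, adjusted p = 9.71e-08). Every KO array was more than 1 log2 unit above every WT array. Socs5, a further member, rose 1.46-fold (0.55 ± 0.075, adjusted p = 0.000102), and Pias3, an inhibitor of STAT3, 1.32-fold (0.40 ± 0.080, adjusted p = 0.00266, other probe 0.29).

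Of 12 tested negative regulators, 3 rose, 4 fell and 5 did not pass, with a median log2 fold change of 0.01. Among all genes tested 43.6% were called, 21.8% upward and 21.8% downward, and the median was also 0.01. The falls were Ptpn2, a phosphatase of JAK and STAT proteins (-0.54 ± 0.089, adjusted p = 0.000523), Ptpn6, the phosphatase SHP-1 (-0.48 ± 0.13, adjusted p = 0.0144), Pias2, a SUMO ligase (-0.32 ± 0.095, adjusted p = 0.0292), and Socs6 (-0.28 ± 0.079, adjusted p = 0.023). The Ptpn6 call was lost without KO C (adjusted p = 0.0588). The Pias2 call was lost without KO A, KO C, WT A or WT B (adjusted p = 0.136, 0.0629, 0.0882 and 0.0605). The Socs6 call was lost without KO B, KO C, WT A or WT B (adjusted p = 0.10, 0.0754, 0.108 and 0.0701), and the other Socs6 probe did not pass (-0.13, adjusted p = 0.48). The log2 fold changes of Socs2 and Pias4, both dim, were 0.05 and 0.06, and neither passed.

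Among genes known to be induced by STAT3 or by gp130 cytokines, 6 fell and 2 rose. Junb, an AP-1 subunit, had log2 intensities of 10.77, 10.79 and 10.84 in KO, against 11.27, 11.29 and 11.29 in WT, and was 1.40-fold lower (-0.48 ± 0.070, SE, adjusted p = 0.000168). Myc, a growth-promoting transcription factor, was 1.49-fold lower, with 7.87, 7.92 and 7.79 in KO and 8.45, 8.46 and 8.40 in WT (adjusted p = 0.000463). Ier3, an immediate early gene, Timp1, an inhibitor of metalloproteinases, and the kinase gene Pim3 fell by 0.43 ± 0.071, 0.31 ± 0.060 and 0.38 ± 0.079 on the log2 scale. Vegfa, a vascular growth factor, rose 1.37-fold (0.45 ± 0.078, adjusted p = 0.00074), and its other probe gave 0.38. The other 7 of the 15 tested missed the threshold, and the median log2 fold change was -0.06. Over all genes tested 21.8% rose and 21.8% fell. Many of these genes also answer to other pathways.

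The other rise was that of Klf4 (0.37 ± 0.089, adjusted p = 0.00852) and the other fall that of Irf1 (-0.23 ± 0.069, adjusted p = 0.0281), both transcription factors and both named after their values were seen. The Klf4 call was lost without KO C (adjusted p = 0.0563), and its other probe did not pass (0.18, adjusted p = 0.298). The Irf1 call was lost when any array except WT A was left out (adjusted p = 0.0591 to 0.0967). Of the brightest members that did not pass, the early gene Egr1 had 0.14 ± 0.062 (adjusted p = 0.154), though it passed without WT C (0.20, adjusted p = 0.0177). Cyclin D1 (Ccnd1) had -0.03 ± 0.071, and Birc5, the apoptosis inhibitor survivin, -0.08 ± 0.075. The other Ccnd1 probes had the opposite sign, 0.15 and 0.25, and did not pass either (adjusted p = 0.250 and 0.252).

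**Figure D3:**
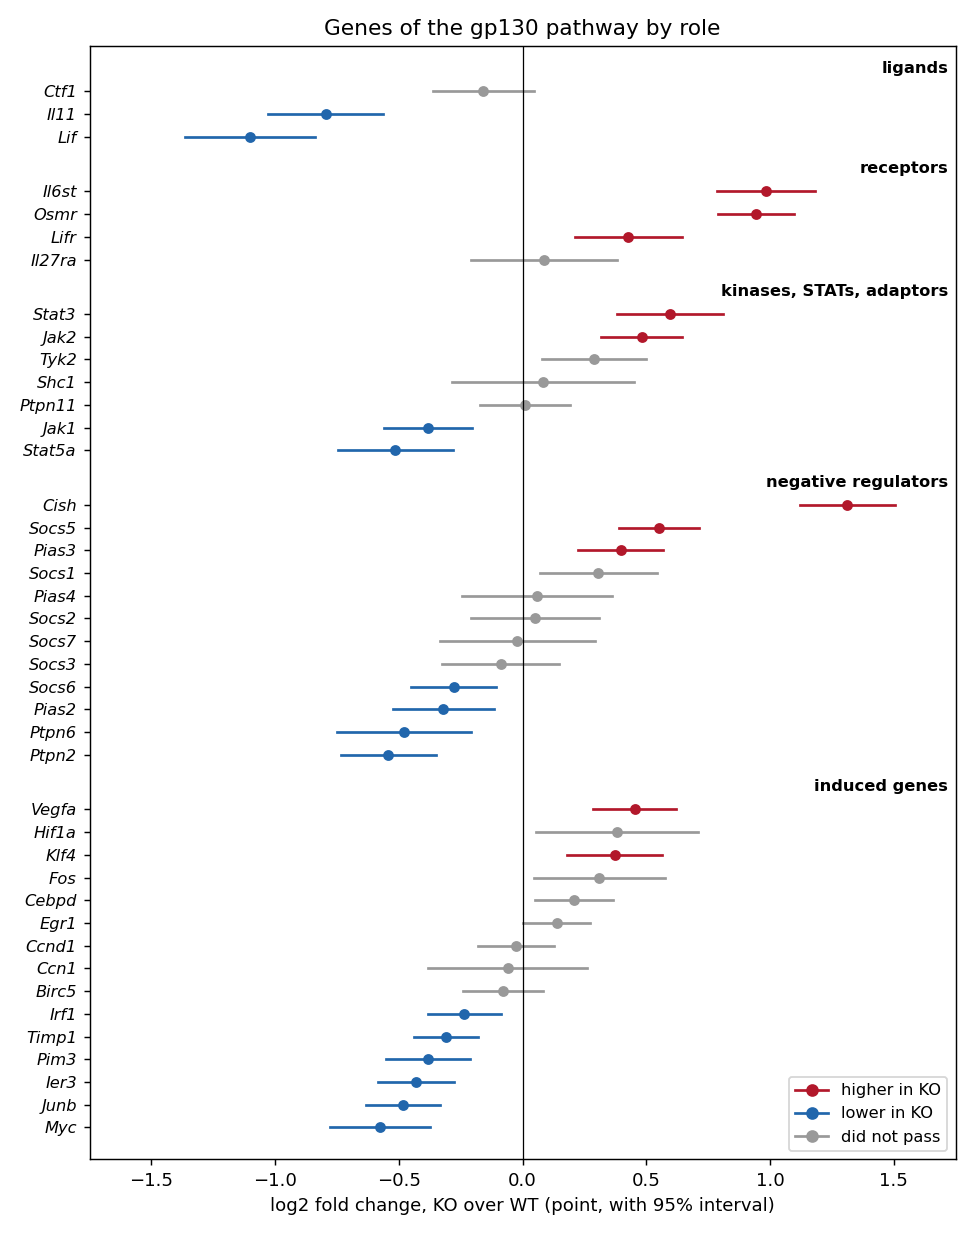
Log2 fold change, KO over WT, with its 95% interval for each of the 41 tested pathway genes, grouped by role and coloured by whether the gene passed the test as higher or lower in KO. Il6st, Osmr and Lifr lie to the right of 0, Lif and Il11 to the left, and the intracellular regulators and induced genes on both sides.

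The alternatives moved the sizes of the 4 probes' changes more than their calls. The log2 fold change lay between 0.80 and 1.07 for Il6st, between 0.90 and 0.97 for Osmr and between -1.26 and -0.82 for Lif over 15 alternatives each. For the second Lif probe it lay between -0.70 and -0.40 over 14, since the strictest filter on dim probes leaves that probe out. The highest adjusted p was 7.11e-05 for Il6st, 2.15e-05 for Osmr, 0.000198 for Lif and 0.0165 for its second probe. Il6st and Lif, which are dim in 1 of the groups, moved with the background correction, whereas Osmr hardly moved.

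**Figure D4:**
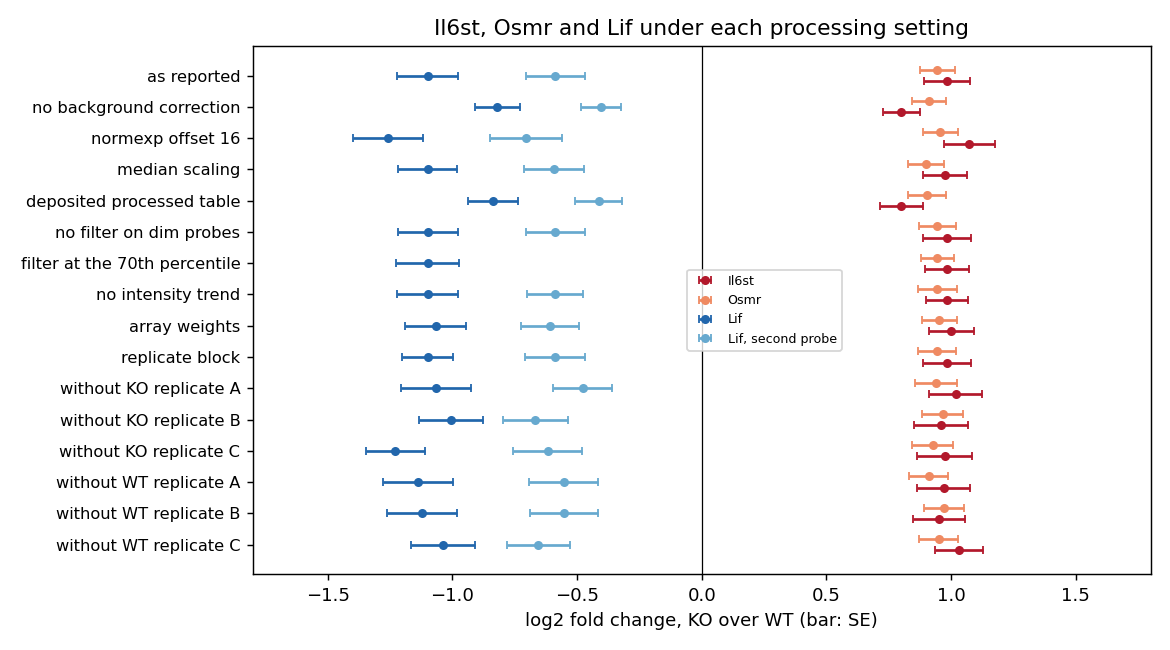
Log2 fold change, KO over WT, with its SE, for the Il6st, Osmr and 2 Lif probes as reported and under each of 15 alternatives; the second Lif probe is missing where the filter removed it. No value crosses 0, and the values without background correction and in the deposited processed table are the smallest in size for Il6st and both Lif probes.

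Ppif itself was 2.59-fold lower in KO (log2 fold change -1.37 ± 0.066, adjusted p = 2.96e-09), with 12.18 to 12.35 in KO and 13.57 to 13.70 in WT. Its KO signal remained at the 93.6th percentile, and where its probe lies relative to the deleted part was not analysed here. Median raw intensities were 226 to 229 on KO arrays and 223 to 251 on WT arrays. Log2 intensities correlated across probes at 0.994 within KO, 0.992 to 0.994 within WT and 0.984 to 0.986 between the groups. Of 12 fibroblast markers 8 were tested; Col1a1, Col1a2 and Fn1 stood at or above the 92.8th percentile of probes in both groups, while Vim and Dcn were dim, and 3 rose, 3 fell and 2 did not pass. The rises were of Pdgfra, Col3a1 and Pdgfrb (2.76-, 2.19- and 1.33-fold), and the falls of Dcn, Col1a1 and Col1a2 (1.56-, 1.55- and 1.28-fold). The summed linear signal of the 8 tested fibroblast markers was 26472 to 30848 in KO and 31563 to 33730 in WT. Bright markers such as Col1a1 weigh most in that sum, so it does not describe the list as a whole.

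Few markers of other cell types were tested, and their part in the changes of Il6st, Osmr and Lif was not tested. Their counts stand against 43.6% called among all genes tested, 21.8% in each direction. Of 7 neural and glial markers 3 were tested and 3 fell, and their summed signal was 1764 to 1870 in KO and 5581 to 6250 in WT. Of 6 epithelial markers 3 were tested, with 1 rise and 1 fall and sums of 1822 to 1935 in KO and 1372 to 1425 in WT. Of 10 leukocyte and macrophage markers 2 were tested, 0 passed, and the sums were 879 to 902 in KO and 864 to 1066 in WT. The 1 tested endothelial marker of 7 rose, with 279 to 288 in KO and 170 to 238 in WT. Of 6 skeletal muscle markers 2 were tested and 1 fell, with sums of 584 to 635 in KO and 577 to 705 in WT. Of 4 pluripotency markers 2 were tested, with 1 rise and 1 fall, and their sums were 524 to 554 in KO and 476 to 519 in WT. Array intensities have no true zero, and no marker was listed at 0. In such bulk cultures fewer cells of a type and less RNA per cell cannot be told apart.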

How the data were processed

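The authors deposited, per the file headers, 1 table of linear probe intensities for each of 6 arrays (45281 probes) and 1 table of processed intensities, with the normalization not given in the sources used. The submitters' processing notes name BeadStudio 3.0. The processed table lists 12534 probes, each with a highest value at least 1.20 times its lowest and at least 273; its values were 0.989 times the quantile-normalized raw intensities at the median of each array. Probe annotation gave 1 gene symbol for 10653 listed probes, several for 5 and none for 1876; 10643 were brought to current symbols through Entrez identifiers (RefSeq, GRCm38.p6).

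With limma 3.58.1 (R 4.3.3), the deposited raw intensities were corrected for background (normexp, offset 50), quantile-normalized and expressed as log2 values. The offset compresses the folds of dim probes. Probes with a mean above the 40th percentile were kept (27168). KO was tested against WT with lmFit and eBayes with an intensity trend, without a block; two-sided p-values were adjusted over the kept probes by the Benjamini-Hochberg method and called under 0.05. Over these probes 5423 (20.0%) were called. A gene was represented by its brightest probe. Fold changes are KO over WT. The number of arrays limits the precision. The steps after background correction were also run on simulated data, with the outcome not reported here. The background correction was not part of that run.

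The named genes were Il6st, Osmr and Lif by all probes and Ppif; all called ligands, receptors, transducers and negative regulators; up to 6 called members of the other lists by lowest p; up to 3 members per list that did not pass, by highest intensity; and 5 genes of most similar pattern per member. The members and lists were chosen with earlier results of these data known. Same-lettered KO and WT arrays deviated from their group means with correlations of 0.10, -0.09 and 0.08 over probes, and no label ties the letters to a shared source, so they were not taken as pairs. The alternatives were other background corrections, median scaling, the processed table, other filters, no trend, array weights, the replicate block, and each array left out.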

Additional observations from a re-analysis of the deposited data

How the results depend on the processing

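Il6st, Osmr and Lif kept their direction and their call under all 15 alternatives run for each. The count of probes called stayed within 1.5 times its reported value of 5423, and that of pathway genes called within 1.5 times its value of 24; leaving out an array gave 4083 to 5897 and 19 to 27. With the replicate block, 5273 probes and 25 pathway genes were called, Il6st had an adjusted p of 1.69e-05, Osmr of 3.01e-06 and Lif of 1.25e-05, and the block changed no call among the genes named. Of 680 comparisons of 46 other results with their alternatives, 640 kept direction and call, 17 lost a call, 6 gained one and 17 changed sign, all of the last for genes that did not pass; the causes were not tested. Ptpn11 had -0.029 with median scaling and -0.0059 with array weights. Leaving out an array turned the sign for Ptpn11 (-0.053 to 0.087), Shc1 (-0.083 to 0.24), Pias4 (-0.048 to 0.21), Ifnar2 (-0.042 to 0.20), Il27ra (-0.055 to 0.19), Ccnd1 (-0.10 to 0.032), Socs3 (-0.20 to 0.039), Socs2 (-0.054 to 0.17), Birc5 (-0.14 to 0.00088) and Il17rc (-0.18 to 0.0083). Fitting no intensity trend ended the calls of Socs6 and Irf1 (adjusted p = 0.0649 and 0.0966). Probes that were called and changed at least 2-fold numbered 663 as reported and 452 without background correction. Without detection p-values, signal over background is unknown, and with it how far the folds of Il6st, Lif, Il11, Lifr and other dim probes can be read.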

Other observations

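Other secreted cytokines were measured beside Lif and Il11. Il7, which encodes interleukin-7, a growth factor of lymphocytes made by stromal cells, had log2 intensities of 7.76, 7.88 and 8.00 in KO, against 9.45, 9.45 and 9.58 in WT. It was 3.06-fold lower (log2 fold change -1.61 ± 0.097, SE, adjusted p = 3.03e-08), a larger fall than that of Lif, and its groups did not overlap. Il18, an interleukin-1 family cytokine, was 1.39-fold lower (-0.47 ± 0.11, adjusted p = 0.00632). Csf1, the macrophage colony-stimulating factor, and Mif, the macrophage migration inhibitory factor, were bright. Their log2 fold changes were -0.18 ± 0.074 and -0.17 ± 0.065, and neither passed (adjusted p = 0.123 and 0.0888). Both passed with median scaling (adjusted p = 0.0399 and 0.0246), and Csf1 also without WT C (-0.23, adjusted p = 0.0379). Of 17 listed cytokines 4 were tested, and 0 rose, 2 fell and 2 did not pass, with a median of -0.33, against 43.6% called and a median of 0.01 over all genes tested.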
